A study of Mus musculus with 48 samples.

Results

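Vcam1, Icam1, Donson, Tbc1d8 and Cpd are 5 genes that stood higher in irradiated than in sham microglia of the mouse hippocampus at 2 h and had lost most of that difference by 6 h. They were taken by name from a table of 48526 genes, and all 5 were among the 10132 genes with at least 1 RPKM in 6 or more libraries, to which every fit was applied. RPKM is reads per kilobase of gene and 1000000 reads on genes. The 5 were chosen by their measured differences at 2 h and 6 h, with no numerical limit, so those differences are given here as descriptions with no test. The 1 day and 1 week differences, the step between them and the sham groups were not used for the choice, and they were tested. The name of early and transient risers fits 4 of the 5 genes through 1 day. It goes against Cpd, which was higher again in irradiated cells at 1 day.

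The irradiated groups were C57BL/6 mice that received 8 Gy to the whole brain once, on postnatal day 21, and were killed 2 h, 6 h, 1 day or 1 week later. Each of these 4 groups had its own sham group of the same strain and time, with 6 animals and 6 libraries in every group, so 48 libraries in 8 groups. After perfusion and mild enzymatic release, microglia of the hippocampus were sorted by flow cytometry on Cx3cr1, a fractalkine receptor that other brain macrophages and some blood monocytes also carry. Total RNA of each sort was sequenced in bulk.

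The libraries held 175382 to 3856777 reads on genes, and 3 libraries had under 1000000 (irradiated 2 h library 2, sham 6 h library 4 and sham 1 day library 6). All 13 microglia markers passed the filter, with summed levels of 35017 to 47320 reads per 1000000 reads on genes (RPM) in irradiated and 38612 to 51198 RPM in sham libraries at 2 h. Of the 13, 5 were called lower at 2 h and 0 higher, where 4.02% of all genes were called lower. The share of mitochondrial reads at 2 h was 6.14% to 14.6% in irradiated and 3.05% to 9.34% in sham libraries, and with totals that leave these reads out the share of calls at 2 h that were higher was 63.2% in place of 53.4%. The changes of the 5 genes at 2 h were then 3.22 for Vcam1, 1.82 for Icam1, 1.88 for Donson, 1.40 for Tbc1d8 and 1.68 for Cpd on the log2(RPKM + 1) scale, each above its value with full totals. Sham 6 h libraries 1 to 4 lay at -43.1 to -36.0 on the first principal component, within the span of the 2 h libraries, while sham 6 h libraries 5 and 6 lay at 11.3 and 16.0, near the irradiated 6 h libraries (12.3 to 21.1). The 6 h changes of the 5 genes and the counts of calls at 6 h, apart from those of markers, therefore stand beside those with sham libraries 5 and 6 alone. That fit has fewer sham libraries. Other values at 6 h use all 6 sham libraries. Among them are list medians, changes of other named genes and places by the part of the change left. At 6 h 7 of the 13 microglia markers were called lower and 0 higher, where 8% of all genes were called lower. The microglia markers summed to 35273 to 39445 RPM in irradiated and 46412 to 50632 RPM in sham 6 h libraries. Sham 6 h libraries 5 and 6 were at 50632 and 48554 RPM.

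Vcam1 and Icam1 are adhesion molecules of the immunoglobulin superfamily that bind integrins on leukocytes, Vcam1 chiefly the Itga4 with Itgb1 pair and Icam1 the Itgb2 pairs with Itgal or Itgam. In inflamed brain vessels endothelial cells display both, largely through the transcription factor NF-kB, and activated microglia are known to carry Icam1. Donson takes part in loading the replicative helicase and in keeping replication forks intact. Tbc1d8 belongs to the TBC domain family of activators of Rab GTPases, the switches of vesicle traffic. Cpd encodes carboxypeptidase D, a membrane enzyme of the Golgi that trims basic residues from the ends of cleaved proproteins.

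At 2 h the adhesion gene Vcam1 (ENSMUSG00000027962, GRCm38 chromosome 3, 116109949 to 116129688, minus strand) ran from 9.09 to 16.6 RPKM in irradiated libraries with a median of 11.1, against 0.273 to 0.645 RPKM in sham libraries with a median of 0.434. The lowest irradiated library stood far above the highest sham library. These levels rest on 71 to 727 reads per irradiated and 9 to 29 reads per sham library. The ratio of the mean RPKM was 26.0, from 11.6 ± 2.66 in irradiated and 0.445 ± 0.131 in sham libraries (SD, n = 6 each). On the log2(RPKM + 1) scale used for all fits the change, irradiated minus sham, was 3.10 ± 0.17 (SE). That scale compresses low levels, and with a pseudocount of 0.1 in place of 1 the change was 4.43 ± 0.40. Among the 466 genes that limma called higher at 2 h, Vcam1 held place 12 by size of change.

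The other adhesion gene, Icam1 (ENSMUSG00000037405, chromosome 9, 21015960 to 21028797, plus strand) ran from 35.5 to 48.6 RPKM in irradiated libraries with a median of 36.8, against 5.82 to 20.5 RPKM in sham libraries with a median of 9.95. Irradiated and sham libraries did not overlap, but the sham libraries differed more among themselves for Icam1 than at any later time (SD 5.61 at 2 h, 1.29 to 1.81 later). The ratio of the mean RPKM was 3.30 and the change 1.74 ± 0.17. Icam1 thus had reads in every sham library (125 to 403 at 2 h), whereas Vcam1 had few.

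In bulk RNA, fewer cells of a type and less RNA per cell cannot be told apart, so markers of other cells that can make these molecules are given beside them. Summed over 15 endothelial markers the level at 2 h was 104 to 235 RPM in irradiated and 62.5 to 381 RPM in sham libraries. Of these markers 2 passed the filter, the glucose transporter Slc2a1 and the tight junction gene Cldn5, and neither was called at 2 h. Cldn5 was near 0, with a median of 0.454 RPM in irradiated and 1.94 RPM in sham libraries. Summed over 14 mural cell and fibroblast markers the level was 2.53 to 16.3 RPM in irradiated and 4.56 to 18.9 RPM in sham libraries, with none past the filter. Of the 14, 2 were at 0 in all irradiated 2 h libraries (Myl9 and Dcn). In all sham 2 h libraries 4 were at 0 (Kcnj8, Myl9, Col1a1 and Lum). The 9 astrocyte markers did separate the groups at 2 h, at 659 to 967 RPM in irradiated and 246 to 447 RPM in sham libraries. Nearly all of that was the glutamate transporter Slc1a3, with medians of 694 RPM in irradiated and 285 RPM in sham libraries, while Aldh1l1 was at 0 in all 12. Perivascular macrophage markers overlapped, at 564 to 882 RPM in irradiated and 432 to 792 RPM in sham libraries.

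**Figure D1:**
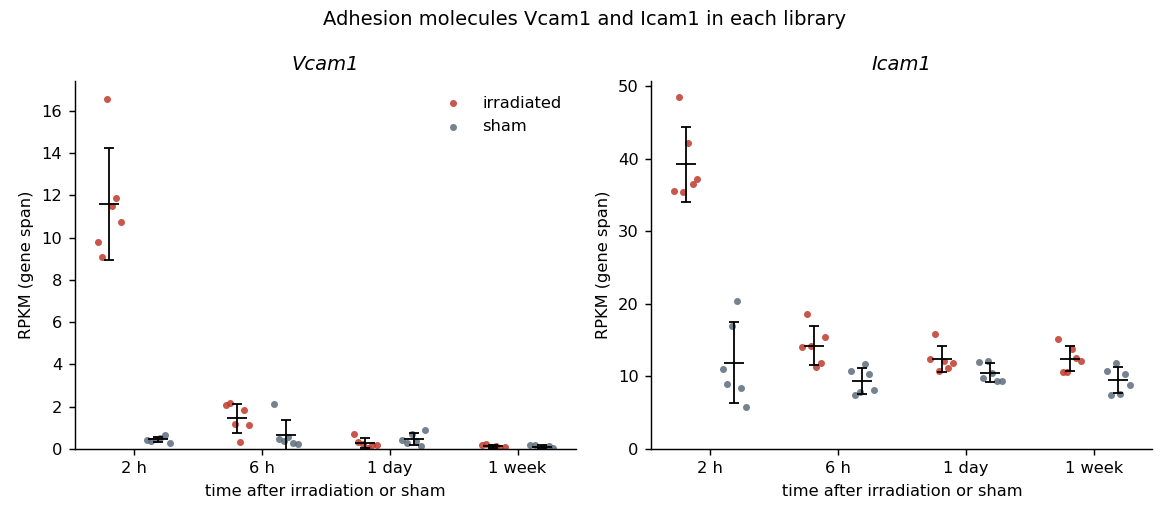
Recomputed RPKM per gene span (linear axes) of Vcam1 and Icam1 in each of the 48 libraries, irradiated left of sham at each time; bars are the mean and SD of 6 libraries. At 2 h every irradiated library lies above every sham library for both genes, and at 6 h, 1 day and 1 week the groups overlap.

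Of the other 3 genes, Donson (ENSMUSG00000022960, chromosome 16, 91677268 to 91688765, minus strand) ran from 8.25 to 11.2 RPKM in irradiated 2 h libraries with a median of 8.79, against 1.03 to 3.23 RPKM in sham 2 h libraries with a median of 1.99. The 6 irradiated libraries were close to each other and all above the sham libraries. The ratio of the mean RPKM was 4.57 and the change 1.80 ± 0.16. Donson shares 4368 bases with Atp5o on its own strand and 1954 bases with Son on the other. Son, a splicing cofactor, had a change at 2 h of 0.06 ± 0.11 (limma adjusted p = 0.844), and Atp5o did not pass the filter on low values.

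Tbc1d8 (ENSMUSG00000003134, chromosome 1, 39371492 to 39478755, minus strand) ran from 2.15 to 3.02 RPKM in irradiated 2 h libraries with a median of 2.34, against 0.254 to 0.482 RPKM in sham 2 h libraries with a median of 0.415. The groups did not overlap, and no library outside the irradiated 2 h group reached 1 RPKM. The gene therefore passed the filter on low values only through these 6 libraries. RPKM here is per base of gene span, which for Tbc1d8 is 107264 bases and 4.53% exonic, and levels are compared only within a gene. The ratio of the mean RPKM was 6.30, and the change was 1.31 ± 0.08 with a pseudocount of 1 and 2.40 ± 0.18 with 0.1. Tbc1d8 shares 885 bases with Gm37265, an unconfirmed transcript on its own strand that was also higher at 2 h (1.73 ± 0.39, limma adjusted p = 0.00195), and 420 bases with Rpl31 on the other strand (-0.16 ± 0.22, limma adjusted p = 0.772). Gm37265 was called higher at 1 week too (1.68 ± 0.39, limma adjusted p = 0.0102), and Rpl31 at 1 day (0.76 ± 0.22, limma adjusted p = 0.0315). How reads in shared bases were assigned is not given in the sources used here.

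Cpd (ENSMUSG00000020841, chromosome 11, 76778424 to 76847018, minus strand) ran from 6.06 to 8.31 RPKM in irradiated 2 h libraries with a median of 7.40, against 1.45 to 2.00 RPKM in sham 2 h libraries with a median of 1.72. Both groups were narrow and lay well apart. The ratio of the mean RPKM was 4.21 and the change 1.59 ± 0.10, with place 89 among the 466 genes called higher. Icam1, Donson and Tbc1d8 held places 70, 65 and 120. These places are by change on the log2(RPKM + 1) scale, which compresses low levels such as those of Tbc1d8. By the ratio of the mean RPKM, Tbc1d8 (6.30) stood above Donson (4.57), Cpd (4.21) and Icam1 (3.30). In all 5 genes each irradiated library was above each sham library at 2 h, as in 2.47% of the 10132 genes, with 4.6% of all genes called higher and 4.02% lower. As these values chose the genes, nothing is read from that count.

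**Figure D2:**
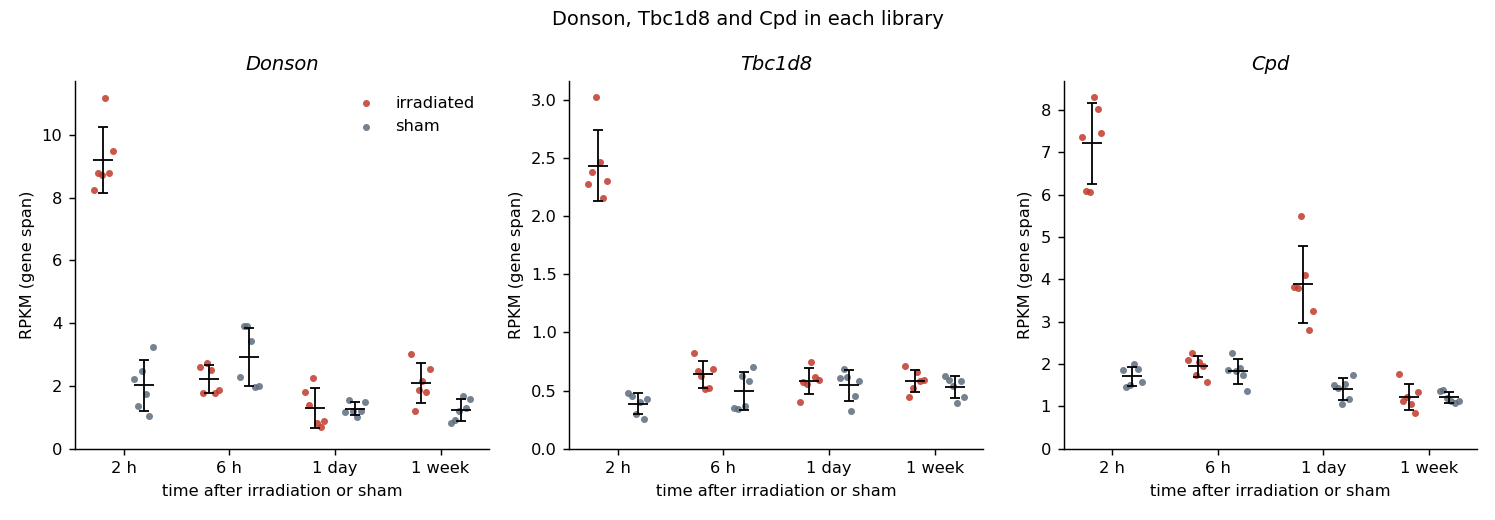
Recomputed RPKM per gene span (linear axes) of Donson, Tbc1d8 and Cpd in each library, irradiated left of sham at each time; bars are the mean and SD of 6 libraries. The irradiated 2 h libraries stand above all others in each panel, and for Cpd the irradiated 1 day libraries (2.81 to 5.49 RPKM) stand apart from their sham libraries as well.

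The RefSeq promoter table (GRCm38.p6, 250 bases before to 50 after the gene start) matched 4 of the 5 genes by symbol, Icam1, Donson, Tbc1d8 and Cpd. The promoters of Icam1, Donson and Cpd are shown because they hold a match to an NF-kB pattern, the factor named above for the adhesion pair. Icam1 is chr9:21015690-21015989 on the plus strand, Donson chr16:91688679-91688978 and Cpd chr11:76846959-76847258, both on the minus strand. Each is written 5′ to 3′ along the gene, with matches in capitals.
Icam1: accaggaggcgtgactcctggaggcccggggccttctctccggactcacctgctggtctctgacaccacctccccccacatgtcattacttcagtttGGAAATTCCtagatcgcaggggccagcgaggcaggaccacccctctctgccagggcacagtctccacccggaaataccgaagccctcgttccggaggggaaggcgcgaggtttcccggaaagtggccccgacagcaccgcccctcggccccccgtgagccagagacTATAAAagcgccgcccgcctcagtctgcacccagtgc
Donson: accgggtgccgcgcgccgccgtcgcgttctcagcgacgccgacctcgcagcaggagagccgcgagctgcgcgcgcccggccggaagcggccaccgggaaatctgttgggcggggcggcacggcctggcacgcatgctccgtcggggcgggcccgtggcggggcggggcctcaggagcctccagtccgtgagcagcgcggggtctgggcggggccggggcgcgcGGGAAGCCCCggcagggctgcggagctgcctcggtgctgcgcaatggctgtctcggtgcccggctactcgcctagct
Cpd: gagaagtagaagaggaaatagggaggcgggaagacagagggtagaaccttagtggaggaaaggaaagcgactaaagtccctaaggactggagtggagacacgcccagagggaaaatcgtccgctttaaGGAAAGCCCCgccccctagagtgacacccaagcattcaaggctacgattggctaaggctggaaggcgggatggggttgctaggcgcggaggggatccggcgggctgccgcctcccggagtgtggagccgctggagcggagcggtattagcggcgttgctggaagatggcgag
Searched on both strands were GGAANTTCC, the NF-kB decamer consensus, TATAAA and the p53 decamer, the repeat unit of p53 response elements. In Icam1, GGAAATTCC lies at -153 to -145 and TATAAA at 14 to 19 from the RefSeq start. The Icam1 start in GENCODE M21, at 21015985, lies farther along the gene, and both matches are upstream of it. GGGAAGCCCC at -27 to -18 in Donson and GGAAAGCCCC at -122 to -113 in Cpd are minus-strand matches of the NF-kB decamer. The decamer consensus was chosen after the matches of a narrower kB decamer had been seen. With that narrower pattern Cpd held its match, Donson held none, and 1.62% of all promoters had one. No matches of the patterns searched overlapped each other, none of the patterns occurred in the window of Tbc1d8, and the p53 decamer occurred in none of the 4 windows. Over 27025 promoters of the same length, 0.97% held GGAANTTCC, 4.35% the NF-kB decamer, 14.16% TATAAA and 8.37% the p53 decamer. The windows were 64.7% GC in Icam1, 77.7% in Donson, 70.0% in Tbc1d8 and 59.7% in Cpd, against a median of 52.7% over all. The pentamer ATTTA, the core of AU-rich elements known from short-lived cytokine mRNAs, was counted in the 3′ UTRs of the GENCODE M21 annotation. It occurred 4 times in 1404 bases in Vcam1, 4 times in 871 bases in Icam1, 3 times in 857 bases in Tbc1d8, 6 times in 3760 bases in Cpd and 0 times in 653 bases in Donson. Per kilobase that is 4.59 in Icam1, 3.50 in Tbc1d8, 2.85 in Vcam1, 1.60 in Cpd and 0 in Donson, with a median of 1.18 over the 6916 tested genes with a 3′ UTR. These values are above 93.0%, 87.1%, 80.2%, 59.3% and 0% of those genes. The longer nonamer TTATTTATT occurred in none of the 5, and in 7.5% of those genes. A match is a description of these letters only.

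By 6 h Vcam1 was 0.317 to 2.15 RPKM in irradiated libraries with a median of 1.49, against 0.237 to 2.11 RPKM in sham libraries with a median of 0.416. The groups overlapped: irradiated library 4, at 0.317 RPKM, lay below 4 sham libraries, and sham library 1, at 2.11 RPKM, stood apart from the other sham libraries, the next of which was at 0.554 RPKM. The change was 0.57 ± 0.17, or 18.3% of that at 2 h, and the ratio of the mean RPKM was 2.15. With a pseudocount of 0.1 the change at 6 h was 1.16 ± 0.40, against 4.43 ± 0.40 at 2 h. With a pseudocount of 1 it was 0.77 without sham library 1 and 0.89 ± 0.21 with sham libraries 5 and 6 alone. Endothelial markers summed to 169.6 to 248 RPM in irradiated and 82.0 to 168.7 RPM in sham 6 h libraries, so the ranges lay just apart. Of the 2 past the filter, Slc2a1 was called higher at 6 h (1.05 ± 0.22, limma adjusted p = 0.000615). Cldn5 was not called (-0.14 ± 0.41, limma adjusted p = 0.857). Of the 15 endothelial markers, Tek was at 0 in all irradiated 6 h libraries, and none was at 0 in all sham 6 h libraries. The part of endothelial markers in the Vcam1 difference was not tested.

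Icam1 at 6 h ran from 11.2 to 18.6 RPKM in irradiated libraries with a median of 14.1, against 7.44 to 11.7 RPKM in sham libraries with a median of 9.18. Of the 6 irradiated libraries 5 lay above every sham library. The change was 0.56 ± 0.17, and 0.57 ± 0.24 against sham libraries 5 and 6 alone. At 31.9% of its 2 h size it kept the largest part of the 5 genes.

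The other 3 were closer to sham at 6 h. Tbc1d8 was 0.512 to 0.822 RPKM in irradiated and 0.340 to 0.703 RPKM in sham libraries, a change of 0.14 ± 0.08 (10.4% of that at 2 h), and -0.01 ± 0.11 against libraries 5 and 6 alone. With a pseudocount of 0.1 the Tbc1d8 change at 6 h was 0.34 ± 0.18, against 2.40 ± 0.18 at 2 h. Cpd was 1.57 to 2.26 RPKM in irradiated and 1.36 to 2.27 RPKM in sham libraries, a change of 0.06 ± 0.10 (4.03% of that at 2 h), and 0.21 ± 0.15 with libraries 5 and 6 alone. Donson was 1.78 to 2.74 RPKM in irradiated and 1.97 to 3.92 RPKM in sham libraries. Its change turned sign with the sham libraries used, at -0.26 ± 0.16 with all 6 and 0.10 ± 0.22 with libraries 5 and 6 alone. None of the 5 genes had all irradiated libraries above all sham libraries at 6 h, when 4.96% of all genes did, 12.9% were called higher and 8% lower. Over all genes 1309 were called higher and 811 lower at 6 h, against 158 and 54 with sham libraries 5 and 6 alone and 1094 and 1028 with median of ratios scaling.

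**Figure D3:**
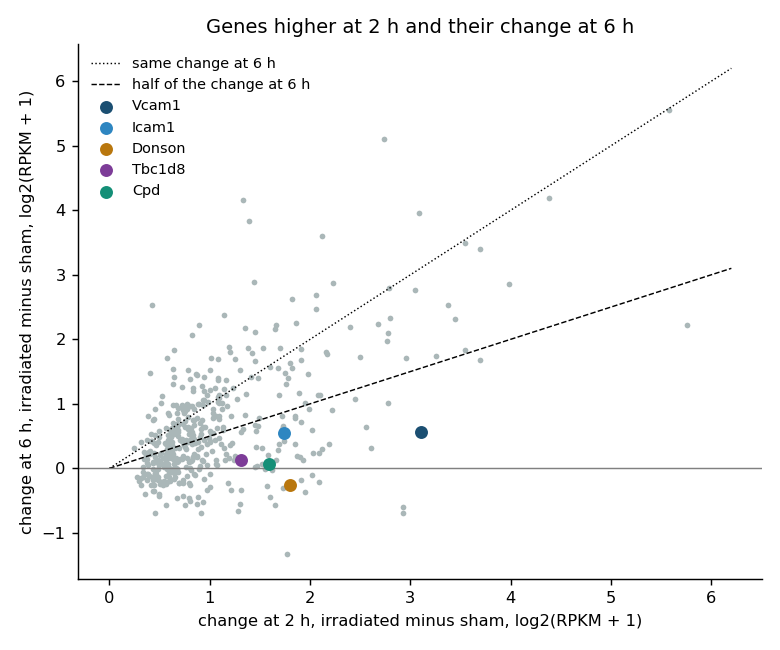
Change at 6 h against change at 2 h, both irradiated minus sham on log2(RPKM + 1), for the 466 genes called higher at 2 h (grey) with the 5 genes in colour; the lines mark the same change and 50% of it. The 5 genes lie below the 50% line, with Vcam1 farthest right at 3.10 and Donson just under 0 at 6 h.

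Loss of the early difference was common among early genes. Of the 466 genes higher at 2 h, 234 (50.2%) had under 50% of their change at 6 h, a division that uses the same contrasts as the choice of the 5. Of these 466 genes, 72 had a smaller part left than Donson, 103 than Cpd, 119 than Tbc1d8, 146 than Vcam1 and 183 than Icam1. These places use all 6 sham 6 h libraries, and the Donson change at 6 h turned sign with sham libraries 5 and 6 alone.

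At 1 day Cpd was higher in irradiated microglia again and the other 4 genes did not pass the test. Cpd was 2.81 to 5.49 RPKM in irradiated libraries with a median of 3.80, against 1.05 to 1.75 RPKM in sham libraries with a median of 1.47. No library of one group entered the range of the other. The means were 3.88 ± 0.915 RPKM in irradiated and 1.41 ± 0.253 RPKM in sham libraries, a ratio of 2.76. The change was 1.01 ± 0.10 (95% interval 0.80 to 1.21; limma adjusted p = 8.88e-10), with the 6 irradiated libraries all above the 6 sham libraries. So 1 of the 5 genes was called higher at 1 day, when 2.9% of all genes were called higher and 1.39% lower. Without overlap, 2.29% of all genes had the irradiated libraries above and 0.691% below. Without the shallow sham library 6 (21 reads on Cpd) the call held, as it did without any 1 of the other 11 libraries (adjusted p at most 1.07e-08). With totals that leave mitochondrial reads out the change was 1.00. The 13 microglia markers summed to 26574 to 38515 RPM in irradiated and 38043 to 49583 RPM in sham 1 day libraries, and 6 of the 13 were called lower. The 13 monocyte and neutrophil markers summed to 358 to 577 RPM in irradiated and 382 to 456 RPM in sham libraries, and 3 of them passed the filter. Plac8 was called higher (0.79 ± 0.21, limma adjusted p = 0.0156). Ccr2 (-0.04 ± 0.17, limma adjusted p = 0.961) and Csf3r (0.13 ± 0.15, limma adjusted p = 0.753) were not called. S100a8 and S100a9 were at 0 in all 12 libraries. The part of these markers in the Cpd difference was not tested.

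Neither gene of the adhesion pair passed the test at 1 day. Vcam1 was 0.0278 to 0.688 RPKM in irradiated libraries with a median of 0.202, against 0.144 to 0.867 RPKM in sham libraries with a median of 0.403. With 1 to 27 reads per library, a difference in either direction was hard to detect at this depth. The change was -0.20 ± 0.17 (95% interval -0.55 to 0.15; limma adjusted p = 0.658). Icam1 was 10.7 to 15.8 RPKM in irradiated and 9.30 to 12.1 RPKM in sham libraries, with 3 irradiated libraries above every sham library. The Icam1 change was 0.21 ± 0.17 (interval -0.13 to 0.56, limma adjusted p = 0.62). Donson was 0.689 to 2.27 RPKM in irradiated and 1.02 to 1.55 RPKM in sham libraries, a change of -0.02 ± 0.16 (interval -0.35 to 0.31; limma adjusted p = 0.982). Tbc1d8 was 0.404 to 0.746 RPKM in irradiated and 0.322 to 0.689 RPKM in sham libraries, a change of 0.03 ± 0.08 (interval -0.13 to 0.20; limma adjusted p = 0.901). In each of these 4 genes the irradiated and sham ranges overlapped.

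Calls at the later times were counted among the genes with and without an early loss, with no test. Of the 234 genes with under 50% of their change left at 6 h, 11 (4.7%) were called higher at 1 day, and of the 232 genes with more left, 92 (39.7%). At 1 week 7 (2.99%) of the 234 and 39 (16.8%) of the 232 were called higher. Of all 10132 genes, 2.9% were called higher at 1 day and 2.03% at 1 week. With sham 6 h libraries 5 and 6 alone, 249 genes had under 50% left, 200 of them among the 234, and 217 had more. Of these, 14 (5.62%) and 89 (41%) were called higher at 1 day, and 9 (3.61%) and 37 (17.1%) at 1 week. The 11, named after their values were seen, were, by size at 1 day, Cxcl10, Nudcd2, Cpd, Parp14, Msh6, Ddias, Dennd2c, Xpo1, Apaf1, Galnt7 and Cdk6. Cxcl10, a chemokine for T cells, had changes of 5.76 at 2 h, 2.21 at 6 h and 1.52 ± 0.43 at 1 day (limma adjusted p = 0.0285). Nudcd2 had 1.85, 0.82 and 1.42 ± 0.30 (limma adjusted p = 0.00163) and Parp14, an interferon-inducible ADP-ribosyltransferase, 1.06, 0.06 and 0.76 ± 0.14 (limma adjusted p = 0.000232) at these times.

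**Figure D4:**
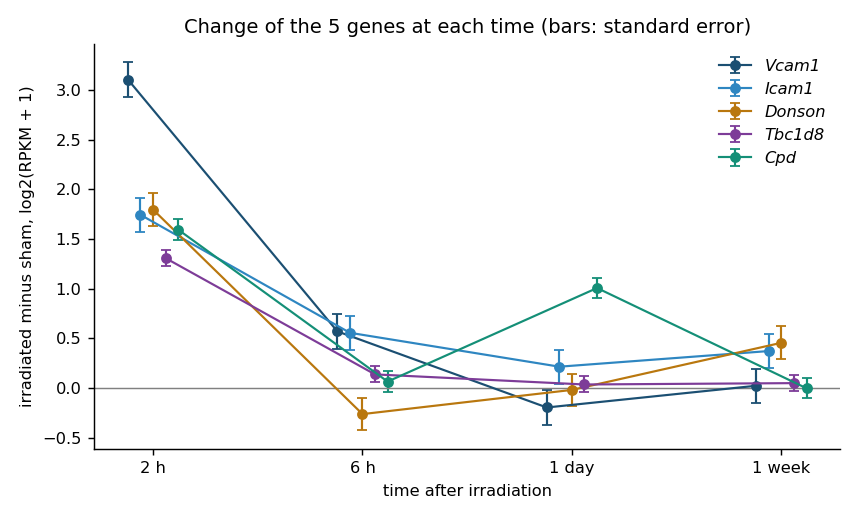
Change of each of the 5 genes at 2 h, 6 h, 1 day and 1 week, irradiated minus sham on log2(RPKM + 1), with its standard error from the fit; times are evenly spaced and points are set side by side. Cpd goes from 0.06 at 6 h to 1.01 at 1 day and -0.0033 at 1 week, while Vcam1 and Tbc1d8 lie within 0.20 of 0 from 1 day on. Both of these genes were under 1 RPKM in every library at 1 day and 1 week, levels at which this scale compresses differences.

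At 1 week none of the 5 genes passed the test. limma called 0 of 5 higher or lower, 2 of 5 had an unadjusted p under 0.05, and voom on the recovered reads also called 0, with 2.03% of all genes called higher and 1.51% lower. None of the 5 separated the groups fully, as 2.06% of all genes did with the irradiated libraries above and 1.12% below. Median of ratios scaling gave 166 genes higher and 186 lower at 1 week in place of 206 and 153. Cpd was 0.855 to 1.76 RPKM in irradiated libraries with a median of 1.17, against 1.08 to 1.39 RPKM in sham libraries with a median of 1.16. Its change was -0.0033 ± 0.10 (interval -0.21 to 0.20; limma adjusted p = 0.996). The step of the Cpd change, 1 week minus 1 day, was -1.01 ± 0.14 (limma adjusted p = 1.27e-05), so the drop between these times passed its own test. It was the 1 such call among the 5 genes, with 2.89% of all genes called lower and 2.54% higher in this contrast.

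Donson came nearest to the threshold at 1 week. It was 1.19 to 3.03 RPKM in irradiated libraries with a median of 2.02, against 0.813 to 1.69 RPKM in sham libraries with a median of 1.24. Of the 6 irradiated libraries 5 lay above every sham library, and library 2 lay within the sham range. The change was 0.45 ± 0.16 (interval 0.12 to 0.79, unadjusted p = 0.00821, limma adjusted p = 0.116), and without irradiated library 2 it was 0.55 (limma adjusted p = 0.046). That was the 1 fit to pass among 12 that each left out 1 library. These 12 gave 0.37 to 0.55, with limma adjusted p of 0.046 to 0.276. Icam1 was 10.6 to 15.1 RPKM in irradiated and 7.39 to 11.9 RPKM in sham libraries, with 4 irradiated libraries above every sham library and a change of 0.37 ± 0.17 (interval 0.03 to 0.72; unadjusted p = 0.0357, limma adjusted p = 0.231).

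Vcam1 and Tbc1d8 overlapped between the groups at 1 week. Vcam1 was 0.0173 to 0.216 RPKM in irradiated and 0.0268 to 0.177 RPKM in sham libraries, from 1 to 14 reads per library (change 0.02 ± 0.17, interval -0.33 to 0.37, limma adjusted p = 0.973). Tbc1d8 was 0.444 to 0.708 RPKM in irradiated and 0.390 to 0.625 RPKM in sham libraries (change 0.05 ± 0.08, interval -0.11 to 0.21, limma adjusted p = 0.81).

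Over the whole course, mean Vcam1 in irradiated microglia was 11.6 RPKM at 2 h, 1.44 at 6 h, 0.270 at 1 day and 0.125 at 1 week, and in sham microglia 0.445, 0.668, 0.458 and 0.108 at the same times. Ordered by these means, neighbours below the irradiated 2 h group overlapped in their libraries, and all 1 week libraries lay below all sham 2 h libraries. The 1 week levels rest on 1 to 14 reads per library. Sham 2 h and 1 week libraries also lay apart on the first principal component, so time and that split cannot be told apart. For Cpd the irradiated means were 7.22, 1.95, 3.88 and 1.23 RPKM, and the sham means 1.71, 1.83, 1.41 and 1.22 RPKM. The order of the Cpd levels was thus irradiated 2 h, then irradiated 1 day, then the other 6 groups, whose libraries overlapped from one group to the next. Icam1, Donson and Tbc1d8 had a single group that stood apart, the irradiated 2 h one.

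In sham microglia none of the 5 genes passed the test between 1 week and 1 day. limma called 0 of 5 (1 had an unadjusted p under 0.05, and voom called 0), with 0.00987% of all genes called higher and 0 lower. The gene with the unadjusted p of 0.034 was Vcam1 (-0.38 ± 0.17, limma adjusted p = 0.72), at means of 0.108 RPKM at 1 week and 0.458 RPKM at 1 day.

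Beside Vcam1 and Icam1, adhesion genes rose at 2 h at about the share of all genes. Of 43 further leukocyte adhesion molecules and their integrin or selectin partners, 21 passed the filter. At 2 h 1 of them (4.76%) rose and 4 fell, where 4.6% of all genes rose and 4.02% fell, and 16 missed the threshold, with a median change of -0.07 against -0.01 over all genes tested. Itga6, a laminin-binding integrin chain, fell to 7.26 ± 0.984 RPKM in irradiated libraries, against 14.0 ± 0.790 RPKM in sham libraries (-0.87 ± 0.09, limma adjusted p = 1.07e-09). The integrin chains Itgb5 (-0.76 ± 0.18, limma adjusted p = 0.00289) and Itgb3 (-0.38 ± 0.11, 0.0212) and the junction molecule F11r (-0.62 ± 0.17, 0.0149) fell as well. The tetraspanin Cd9 rose to 8.25 ± 0.861 RPKM in irradiated libraries, against 5.18 ± 1.01 RPKM in sham libraries (0.59 ± 0.12, limma adjusted p = 0.000366). Of the integrin chains that bind the pair, picked for that role, Itga4 and Itgal were not past the filter, and Itgam, Itgb2 and Itgb1 did not pass the test at 2 h, with changes of 0.16 ± 0.13 for Itgam, -0.18 ± 0.16 for Itgb2 and -0.06 ± 0.14 for Itgb1 (limma adjusted p = 0.591, 0.612 and 0.871). Of the 21, 4 were higher and 7 lower at 6 h (1 and 1 with sham libraries 5 and 6 alone), 1 and 2 at 1 day, and 0 and 1 at 1 week. At 1 week 5 and 6 had an unadjusted p under 0.05 and voom called 3 and 3. Of all genes 12.9% were higher and 8% lower at 6 h, 2.9% and 1.39% at 1 day, and 2.03% and 1.51% at 1 week. With sham libraries 5 and 6 alone 158 of the 10132 genes were higher and 54 lower at 6 h.

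A list of NF-kB components, inhibitors and targets, written with earlier results of these data known, had many members that rose at 2 h. Of 50 listed, 40 passed the filter, of which 17 (42.5%, against 4.6% of all genes) rose at 2 h, 0 fell and 23 missed the threshold, with a median change of 0.67 against -0.01 over all genes tested. By unadjusted p under 0.05 the counts were 28 higher and 1 lower, and voom called 18 higher and 0 lower. The pattern receptor Tlr2 reached 163 ± 24.2 RPKM in irradiated libraries, against 27.0 ± 5.08 RPKM in sham libraries (2.56 ± 0.16, limma adjusted p = 2.43e-16). Cxcl10 reached 248 ± 95.5 RPKM in irradiated libraries, against 4.75 ± 4.56 RPKM in sham libraries (5.76 ± 0.43, limma adjusted p = 4.21e-14). The chemokine Cxcl16 (3.25 ± 0.26), the inhibitor Nfkbie (1.95 ± 0.18) and the apoptosis inhibitor Birc3 (1.19 ± 0.12) rose too, each at limma adjusted p of at most 3.33e-10. At 6 h 17 (42.5%) were higher and 1 lower, where 12.9% of all genes were higher and 8% lower. With sham libraries 5 and 6 alone 6 of the 40 were higher and 0 lower, where 158 of all 10132 genes were higher and 54 lower. At 1 day 7 (17.5%) were higher and 0 lower, where 2.9% of all genes were higher. At 1 week 1 (2.5%) was higher and 1 lower, near the 2.03% of all genes that were higher. The median changes at these times were 0.49, 0.18 and 0.11, against 0.08, 0 and 0.05 over all genes.

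**Figure D5:**
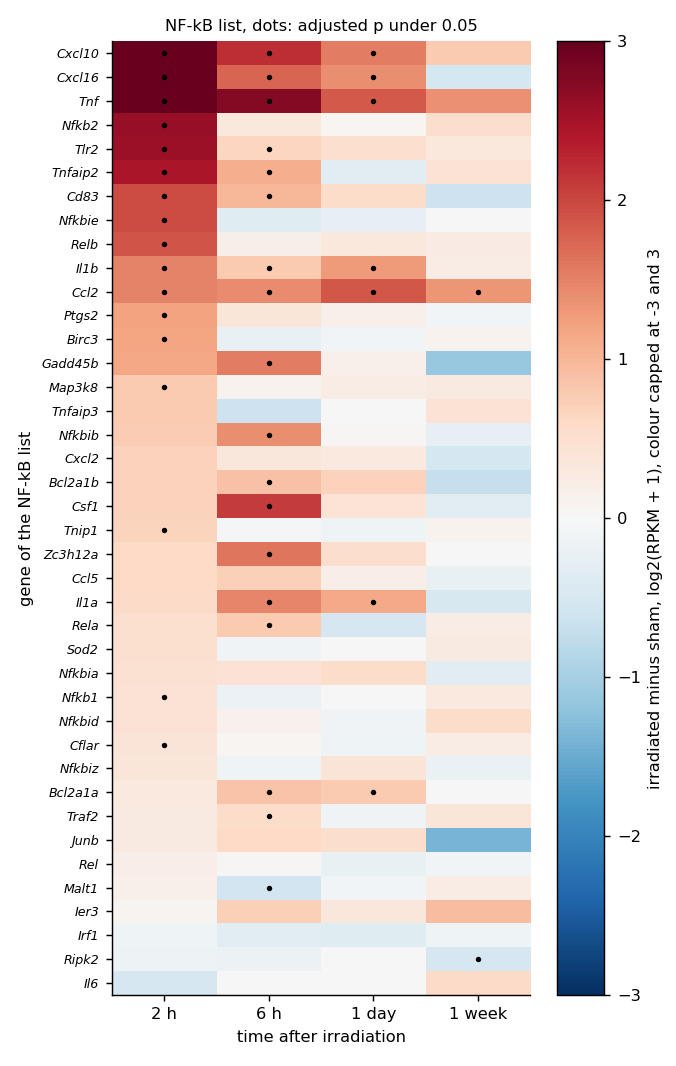
Change (irradiated minus sham, log2(RPKM + 1), colour capped at -3 and 3) of the 40 tested NF-kB list genes at 4 times, ordered by the 2 h change; dots mark a limma adjusted p under 0.05. The dots number 17 at 2 h, 18 at 6 h (17 higher, 1 lower), 7 at 1 day and 2 at 1 week.

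The lists for the remaining 3 genes had few genes past the filter, and their counts at 2 h are set against 4.6% of all genes higher and 4.02% lower. Of 49 replication fork genes beside Donson 11 passed the filter and 2 (18.2%) rose at 2 h, the fork remodeller Smarcal1 (0.44 ± 0.10, limma adjusted p = 0.00122) and Tonsl, a factor of fork repair (0.88 ± 0.28, limma adjusted p = 0.0406). When 1 library was left out, 7 of 12 fits called 1 gene of the list (without sham libraries 4, 5 or 6, or irradiated libraries 1, 2, 3 or 4). Of 37 TBC domain genes beside Tbc1d8 14 were tested. Tbc1d14 fell (-0.62 ± 0.10, limma adjusted p = 1.6e-05), and 0 rose, also by unadjusted p under 0.05 and by voom. Of 19 genes of proprotein and prohormone processing beside Cpd only the proteases Furin (-0.06 ± 0.19, limma adjusted p = 0.919) and Pcsk7 (0.12 ± 0.18, limma adjusted p = 0.796) were tested, and neither passed. At 6 h the counts were 2 higher and 1 lower for the fork genes, 3 and 1 for the TBC genes, and 1 and 0 for the processing genes. At that time 12.9% of all genes were higher and 8% lower. With sham 6 h libraries 5 and 6 alone, 1 TBC gene was higher and no other gene of these 3 lists was called. In that fit 158 of the 10132 genes were higher and 54 lower.

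By Pearson correlation of log2(RPKM + 1) over the 48 libraries, the genes most like each of the 5 were mostly other early genes, which share the irradiated 2 h libraries with them. For Vcam1 these were Pmaip1 (r = 0.883), Cxcl10 (0.863), Icam1 (0.862) and Tlr2 (0.854), and for Icam1 Tlr2 (0.875), Cxcl10 (0.874), Tap1 (0.848) and Mdm2 (0.836). For Donson they were Tlr1 (0.829), Nfkb2 (0.797), Pmaip1 (0.789) and Rchy1 (0.789). For Tbc1d8 they were Tlr2 (0.924), Cxcl10 (0.874), Icam1 (0.862) and Nfkbie (0.842), and for Cpd Cxcl10 (0.828), Tlr2 (0.801), Mdm2 (0.800) and Tor3a (0.783). Among the 5 genes themselves r was 0.705 to 0.890 over 48 libraries. Without the irradiated 2 h libraries, over the other 42, it was -0.087 to 0.335.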

How the data were processed

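The authors deposited RPKM per gene for 48 bulk RNA libraries; the submitters' processing notes name STAR 2.6.1d, featureCounts 1.5.1 and the build GRCm38. The deposited RPKM of a gene equal whole reads divided by the gene span, introns included, and by the total of a library that was mostly not its own (2.05% were). Undoing this gave whole reads for 100% of 719081 values above 0 (tolerance 0.001 reads), the libraries' recovered sums matched 48 of 48 totals, and each of the 5 genes had 1 possible match. RPKM was recomputed with each library's own total. Deposited over recomputed RPKM ran from 0.0521 to 18.7 for the 5 genes. Levels are not comparable between genes.

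Genes with at least 1 RPKM in 6 libraries were kept, and limma 3.58.1 (R 4.3.3) fitted 8 means to log2(RPKM + 1), with trended and robust variance (40 residual degrees of freedom), two-sided, with Benjamini-Hochberg adjustment over 10132 genes and a threshold of 0.05. The script was checked on simulated data. The replicates were separate animals, per the labels' design text. Library preparation used a kit for single cell amounts of RNA, and no source used here states strand or molecular identifiers.

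The 5 genes and the lists were chosen with earlier results of these data known. Named beside them are up to 5 genes per list with the smallest adjusted p at 2 h (or, with none past it, up to 2 of the highest mean) and the 4 most correlated genes per member with a mean of at least 5 RPKM; exceptions are stated. Alternatives varied the pseudocount, filter, scaling, deposited values, voom, shallow libraries, replicate block, single time points, single libraries and, at 6 h, the sham libraries.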

Additional observations from a re-analysis of the deposited data

Results flagged for a closer look

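Over 40 gene and group combinations, 4 had 1 library far from the other 5 of its group, and chance gives about 1 in 20. Vcam1 was 16.6 RPKM in irradiated 2 h library 3, with the next at 11.9. Tbc1d8 was 3.02 RPKM in the same library, with the next at 2.46. Vcam1 was 2.11 RPKM in sham 6 h library 1, with the next at 0.554. Icam1 was 15.8 RPKM in irradiated 1 day library 2, with the next at 12.4.

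The irradiation effect on Cpd differed between times that were not used to choose the gene, with a step from 1 day to 1 week of -1.01 on the log2(RPKM + 1) scale.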

How the results depend on the processing

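Of the tested results, Cpd kept its call at 1 day under every alternative but the values as deposited (change 1.03, limma adjusted p = 0.789), as did its step from 1 day to 1 week (-1.05, adjusted p = 1). With the deposited values 0 of the 5 genes passed at 1 day, and the counts over all genes were 51 higher and 1 lower at 2 h, 56 and 8 at 6 h, 39 and 0 at 1 day and 11 and 0 at 1 week. The lists had 0 adhesion, 5 NF-kB and 0 replication fork genes higher at 2 h. The deposited values carry totals of other libraries. With the 12 libraries of a time alone there were 298 higher and 215 lower at 2 h, 493 lower at 6 h, 55 lower at 1 day and 1 fork gene. With sham 6 h libraries 5 and 6 alone 158 were higher and 54 lower at 6 h. In the lists, applied after the data had been seen, it gave 1 adhesion gene higher and 1 lower, 6 NF-kB genes higher and 0 lower, 0 fork genes either way, 1 TBC gene higher and 0 lower and 0 processing genes higher. voom gave 242 lower at 1 day and 423 higher and 286 lower at 1 week. Without the filter 89 were lower at 1 week, and 3 adhesion, 1 fork, 1 TBC and 1 processing gene were higher at 2 h. Adhesion genes higher at 2 h numbered 2 with a pseudocount of 0.1, median of ratios scaling or totals without mitochondrial genes. The cause was not tested.

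The labels do not say that replicate numbers pair the animals, and deviations of same-numbered libraries correlated at -0.107 to 0.137. With the replicate block the Cpd change at 1 day was 1.01 and 1 fork gene was higher at 2 h; in no other result here did the block change a call or count by over 1.5 times.

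Some differences near 0 changed sign with no call. With totals without mitochondrial genes Cpd at 1 week was 0.0087. With median of ratios scaling the Tbc1d8 step was -0.0070. voom gave -0.018 for this step and 0.019 for the Tbc1d8 sham difference. Without the shallow libraries Donson at 1 day was 0.0067. Deposited values gave 0.032 for Donson at 1 day, -0.14 for the Icam1 step, -0.083 for the Tbc1d8 step, and sham differences of 0.79 for Cpd, 0.59 for Donson (0.586) and 0.59 for Icam1 (0.593). Leaving out 1 library gave -0.068 to 0.047 for Cpd at 1 week, -0.13 to 0.062 for Donson at 1 day, -0.086 to 0.027 for its sham difference, -0.0091 to 0.069 for Tbc1d8 at 1 day, -0.020 to 0.058 for its step, -0.054 to 0.017 for its sham difference and -0.00072 to 0.051 for Vcam1 at 1 week. It gave 0.37 to 0.55 for Donson at 1 week, 0 to 1 of the 5 genes called at 1 week, and 1 to 2 adhesion and 1 to 2 fork genes at 2 h. Over all genes it gave 86 to 268 higher and 51 to 227 lower at 1 week and 89 to 193 lower at 1 day.

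At 2 h, pseudocount 0.1 and voom moved the changes to 4.43 and 4.69 for Vcam1, 2.22 and 2.31 for Donson, 2.40 and 2.70 for Tbc1d8 and 2.01 and 2.08 for Cpd. At 6 h they gave 1.16 and 1.23 for Vcam1 and 0.34 and 0.40 for Tbc1d8. Depth limits Vcam1 outside the irradiated 2 h libraries, down to 1 read per library.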
